A study of Gallus gallus with 4 samples.

Results

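H3K9me3 domains on chicken chromosomes 20, 23 and 26 were compared between cultured primordial germ cells (cPGCs) and embryonic stem cells (ESCs). These microchromosomes were chosen by their measured excess of domain bases in cPGCs, so the excess itself is given as a description and carries no test. The 3 chromosomes held 1153 of the 47621 domains, 485 in cPGCs and 668 in ESCs. Chromosome 20 held 603 of them, chromosome 23 held 274 and chromosome 26 held 276.

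Primordial germ cells are the embryonic precursors of sperm and eggs, and the cPGCs are a culture derived from them. Chicken ESCs are pluripotent cells cultured from the early embryo. Neither group carries a treatment or an engineered allele in the labels, and both were immunoprecipitated with the same antibody against H3K9me3. For each cell type there was 1 immunoprecipitated library and 1 input library, so the values have no replicate error, and a difference between the cell types cannot be told apart from a difference between these cultures or libraries. The values are start and end positions on galGal5, called by the authors with the input as control, with no count or signal attached, and the read depth is therefore unknown. The identity of the cells was not checked against marker genes, because the files hold positions only.

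H3K9me3, the trimethylation of lysine 9 of histone H3, marks constitutive heterochromatin and silenced genes. It is read by heterochromatin proteins that recruit the writing enzymes, and the mark can therefore extend along the fiber into wide domains. Bird genomes contain many small chromosomes, the microchromosomes, which are rich in genes and GC bases, recombine often and tend to lie in the nuclear interior.

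Coverage was taken as the percentage of bases in domains, counting from the chromosome start up to the end of the domain that lies furthest along in either list. Chromosome 20 was covered at 33.6% in cPGCs against 23.2% in ESCs, with a ratio of 1.45. On chromosome 23 the values were 40.9% and 28.4%, a ratio of 1.44. On chromosome 26 they were 37.9% and 25.9%, a ratio of 1.46. Among the 20 microchromosomes (number 11 and up), these are the 3 highest ratios, and 14 of the 20 had more domain bases in cPGCs. The next in order was chromosome 24, with a ratio of 1.40 (46.4% and 33.1%), followed by chromosome 17 with 1.33, so no clear break separates the selected chromosomes from their neighbors. The other 17 microchromosomes together had a ratio of 1.07, at 22.9% coverage for cPGCs against 21.5% for ESCs. Over all 30 chromosomes the ratio was 1.52, and it was 1.89 on chromosome 1 and 1.98 on chromosome 2. Coverage in ESCs differed less between these groups, with 25% on the 3 chromosomes, 21.5% on the other microchromosomes and 22.5% over all chromosomes.

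**Figure D1:**
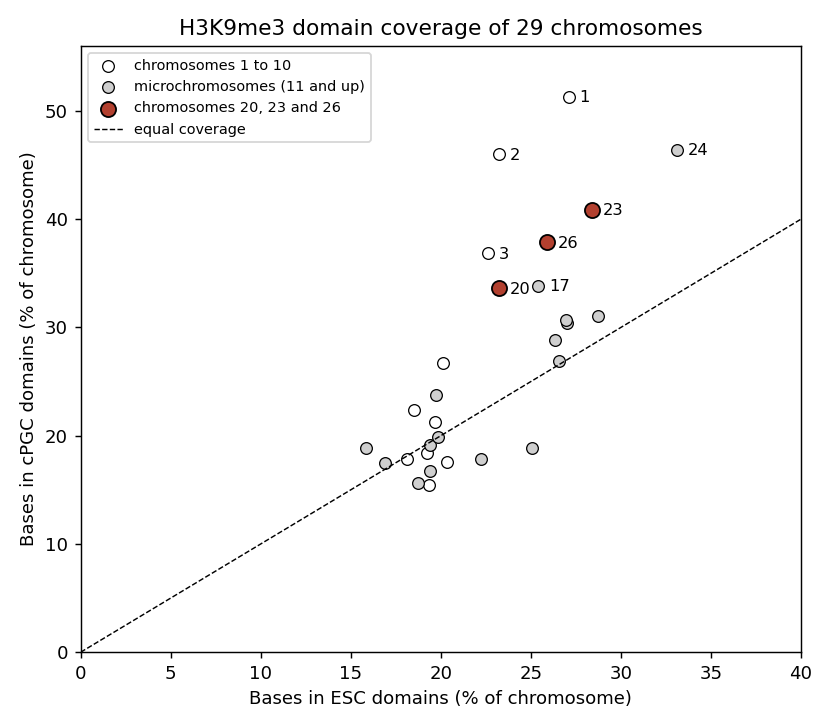
Percentage of bases in cPGC domains (vertical axis) against percentage in ESC domains (horizontal axis) with 1 point for each chromosome that has domains of cPGCs and of ESCs. Chromosomes 20, 23 and 26 (red) lie above the dashed line of equal coverage at 33.6%, 40.9% and 37.9% in cPGCs, near chromosomes 24 and 17.

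The excess was placed along each chromosome with fixed windows of 1 Mb. Chromosome 20 showed 2 blocks of high coverage in cPGCs. In the first, between 2 and 5 Mb, the 3 windows were covered at 51.3%, 71.6% and 63.8% in cPGCs and at 34.1%, 53.1% and 43.0% in ESCs. This block was thus already the most densely covered part of the chromosome in ESCs. In the second, between 8 and 10 Mb, the windows were covered at 57.8% and 52.8% in cPGCs and at 25.4% and 31.7% in ESCs. The window from 8 to 9 Mb had the largest difference of the chromosome, 32.4 percentage points, and carried 324000 of the 1462800 bases of net excess. Between 10 and 13 Mb coverage was lower in both cell types, at 25% to 28.1% in cPGCs and 8.91% to 16.7% in ESCs. These windows also carried part of the net excess, with 146400, 160800 and 100400 bases in order. In 4 windows chromosome 20 had more domain bases in ESCs, namely 0 to 1 Mb (13.9% in cPGCs and 20.1% in ESCs), 7 to 8 Mb (14.6% and 20.2%), 13 to 14 Mb (4.44% and 15%) and the last 73600 bp (4.08% and 36.3%).

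On chromosome 23 the windows from 3 to 4 Mb and from 4 to 5 Mb carried most of the excess. They were covered at 65.3% and 54.6% in cPGCs and at 32.4% and 29.6% in ESCs, and held 329100 and 249800 of the 718500 bases of net excess. The first 3 windows differed by 4.21 to 8.55 percentage points, all higher in cPGCs. In the last window, of 743800 bp, coverage was higher in ESCs (18.7%) than in cPGCs (11.1%).

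Chromosome 26 had no such block. Its 6 windows ranged from 33.3% to 44.5% in cPGCs and from 20.4% to 28.7% in ESCs, so the ranges did not overlap and every window was higher in cPGCs. The window from 3 to 4 Mb carried the largest part of the excess, with 220600 of 636600 bases, and the last window, of 312700 bp, showed the largest difference, 23.3 percentage points.

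**Figure D2:**
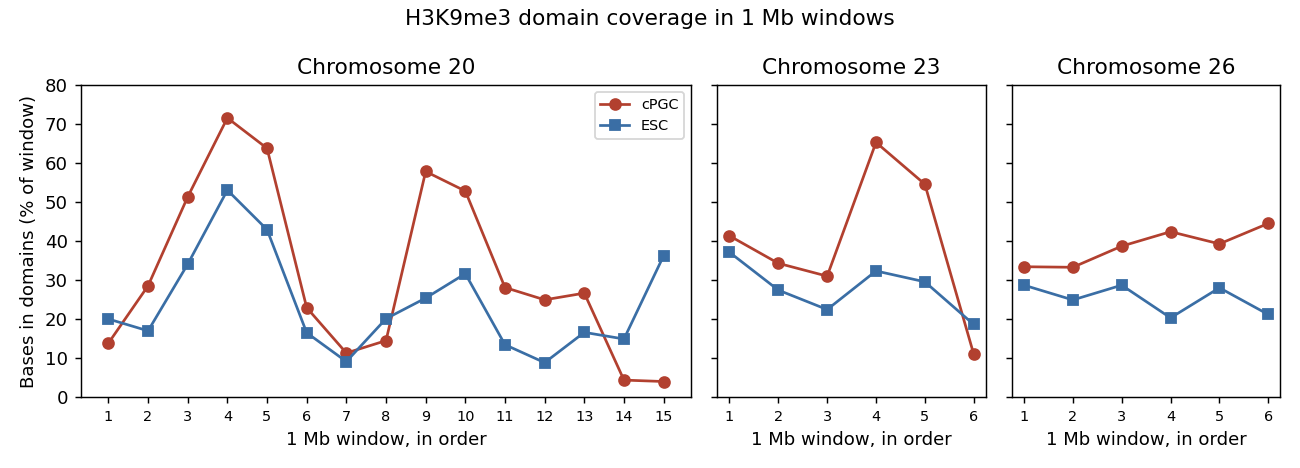
Percentage of each 1 Mb window in cPGC domains (red circles) and ESC domains (blue squares), with the windows in order from the chromosome start and the last window of each chromosome shorter. Chromosome 20 shows 2 blocks of high cPGC coverage, chromosome 23 shows 1 in windows 4 and 5, and the 6 windows of chromosome 26 stay between 33.3% and 44.5% in cPGCs.

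A difference of at least 10 percentage points in favor of cPGCs was found in 9 of 15 windows of chromosome 20, 2 of 6 of chromosome 23 and 3 of 6 of chromosome 26, which is 14 of 27 (51.9%). Over all chromosomes the share was 49.4%, and over the other microchromosomes it was 22.6%. The windows nearest to this limit were 12 to 13 Mb of chromosome 20, at 10.04 percentage points, and 2 to 3 Mb of chromosome 26, at 9.99. A difference of at least 10 percentage points in favor of ESCs was found in 2 of the 27 windows, both at the end of chromosome 20, against 6.24% over all chromosomes. The later of these was the short last window of 73600 bp, which closes on a domain end by definition. Since the chromosomes were selected on the same contrast, nothing is read from these counts about the selection. Across the 27 windows, coverage in cPGCs and in ESCs went together (Pearson's r = 0.67, Spearman's rho = 0.68), a description only, as neighboring windows share domains and all windows share the same libraries. The order was not the same on each chromosome, since r was 0.69 over the 15 windows of chromosome 20 and 0.74 over the 6 of chromosome 23, but -0.65 over the 6 of chromosome 26.

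The ends of the chromosomes were measured separately. The last 1 Mb of chromosome 20 had a coverage of 4.33% in cPGCs against 15.9% in ESCs, and the first 1 Mb one of 13.9% against 20.1%, while the sequence between was covered at 37.7% and 24.1%. On chromosome 23 the last 1 Mb was covered nearly equally (23.5% and 23.1%), and the sequence between the end windows at 45.4% and 27.5%. Chromosome 26 differed, as its last 1 Mb had a coverage of 47.9% in cPGCs against 28.8% in ESCs. Pooled over the 13 other microchromosomes longer than 3 Mb, the first 1 Mb was covered at 24.8% and 27% and the last at 25% and 21.1%. The direction on each of these chromosomes was not examined. Chromosomes 20 and 26 went in opposite directions in the last 1 Mb, which was counted back from the last domain end.

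Domains on the 3 chromosomes were fewer but wider in cPGCs, as they were over all chromosomes (23130 domains in cPGCs and 24491 in ESCs). Medians over the 3 chromosomes together, 9000 bp in cPGCs and 6300 bp in ESCs, were the same as those over all chromosomes. The median cPGC domain spanned 8100 bp and the median ESC domain 6600 bp on chromosome 20, with 10650 and 6000 bp on chromosome 23 and 10200 and 6450 bp on chromosome 26. The mean widths were further apart, at 18133 and 9561 bp, 24466 and 9158 bp, and 15717 and 9292 bp, respectively. Chromosome 23 had the largest ratio of mean widths among the 3, 2.67, and the lowest ratio of domain numbers, with 96 domains in cPGCs and 178 in ESCs. For comparison, the mean cPGC domain spanned 14037 bp and the mean ESC domain 9084 bp on the other microchromosomes, and 19388 and 11215 bp on chromosome 24. The mean width of ESC domains thus spanned a narrow range on the 3 chromosomes, whereas that of cPGC domains did not.

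By the width of the domains of each list, the net excess lay in the wide domains. In domains of 50 kb and over, cPGCs had 1876500 bp on chromosome 20, 1169700 bp on chromosome 23 and 484500 bp on chromosome 26, whereas ESCs had 223800, 50100 and 0 bp. In domains from 5 to 20 kb the order was the opposite, as ESCs had 1832100, 903900 and 836100 bp against 1195800, 341400 and 662100 bp for cPGCs. The narrowest domains, under 5 kb, also held more bases in ESCs on each of the 3 chromosomes. By number, 41 cPGC domains (8.45%) and 5 ESC domains (0.749%) of the 3 chromosomes reached 50 kb, against 3.33% and 0.502% over all chromosomes. For cPGC domains the share was 9.33% on chromosome 24 and 9.74% on chromosome 17. Of the 4523700 cPGC bases outside ESC domains, 1437600 lay in domains of 50 kb and over and 1542000 in domains of 20 to 50 kb. Domains from 5 to 20 kb held 1308900 of them and those under 5 kb 235200, so these bases were not confined to wide domains. Domains of at least 20 kb held 71.6% of the cPGC domain bases and 30.2% of the ESC domain bases on these chromosomes, against 57.2% and 31.4% on the other microchromosomes. The cPGC share was about the same on chromosomes 24 (68.9%) and 17 (70.7%).

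**Figure D3:**
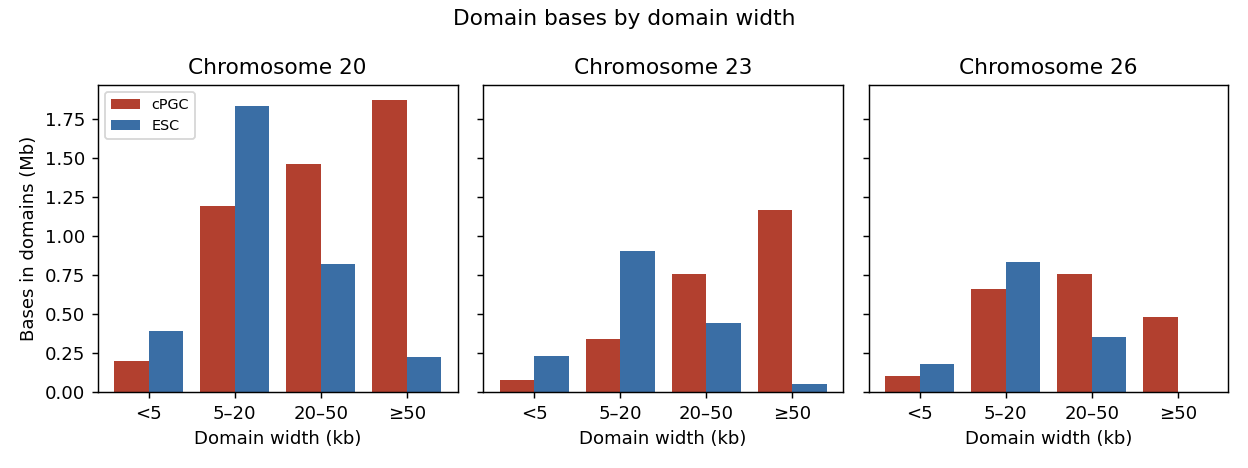
Bases in domains (Mb, vertical axis) by width class (kb, horizontal axis) for cPGCs (red) and ESCs (blue) on each chromosome. Domains of 50 kb and over reach 1876500 bp for cPGCs against 223800 bp for ESCs on chromosome 20, and none occurs in ESCs on chromosome 26.

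On these chromosomes 10 of 485 cPGC domains and no ESC domain reached 100 kb, against 112 of 23130 and 7 of 24491 over all chromosomes. Of the 10, 6 lay on chromosome 20 and 4 on chromosome 23. The widest was a domain of 215100 bp on chromosome 20 (galGal5, 4617901 to 4833000), which overlapped 8 ESC domains that covered 80.3% of it. The next on this chromosome, of 202200 bp (3421501 to 3623700), was covered by 9 ESC domains at 86.8%. The widest of chromosome 23, of 184800 bp (4636501 to 4821300), was covered by 9 ESC domains at 78.6%, and a gap of 4800 bp separated it from a domain of 166800 bp (4464901 to 4631700), covered by 7 ESC domains at 38.7%. The remaining 6 were covered by ESC domains at 29% to 81.8%, so that none of the 10 lay apart from ESC domains. The widest cPGC domain of chromosome 26 spanned 95400 bp (4460401 to 4555800), with 85.8% in ESC domains. Chromosome 20 had its widest cPGC domain without overlap at 10853401 to 10899900 (46500 bp), chromosome 23 at 5027101 to 5056500 (29400 bp) and chromosome 26 at 3578101 to 3605100 (27000 bp). Those of ESCs were narrower on chromosome 20 (21300 bp, 991801 to 1013100) and on chromosome 26 (18600 bp, 4735201 to 4753800), and of similar width on chromosome 23 (31200 bp, 673201 to 704400). In ESCs the widest domains were 63900 bp on chromosome 20 (4121701 to 4185600), 50100 bp on chromosome 23 (5669701 to 5719800) and 46800 bp on chromosome 26 (804901 to 851700), of which 73.7%, 4.19% and 98.7% lay in cPGC domains.

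To see how the lists overlapped, bases were assigned to the shared core (in domains of both cell types), to expansions (the remainder of a domain that overlaps the other list by at least 1 bp) or to domains without overlap. The shared core made up 50.3% of the cPGC domain bases and 72.8% of the ESC domain bases of the 3 chromosomes. Expansions made up 35.6% in cPGCs and 11.6% in ESCs, and domains without overlap 14.2% and 15.6%. On the other microchromosomes the core held 52.6% and 56%, expansions 29% and 14.7%, and domains without overlap 18.5% and 29.3%. In base pairs, expansions exceeded those of ESCs by 1233000 on chromosome 20, 762000 on chromosome 23 and 510900 on chromosome 26. Domains without overlap added 229800 bp to the excess on chromosome 20 and 125700 bp on chromosome 26, while on chromosome 23 the ESC list had more of them (257700 bp against 214200 bp). This split depended on the definition. If a domain counted as shared only with an overlap of at least 50%, expansions held 11.6% of the cPGC domain bases. Domains below that limit, counted whole with the bases they share with ESC domains, held 48.6%.

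**Figure D4:**
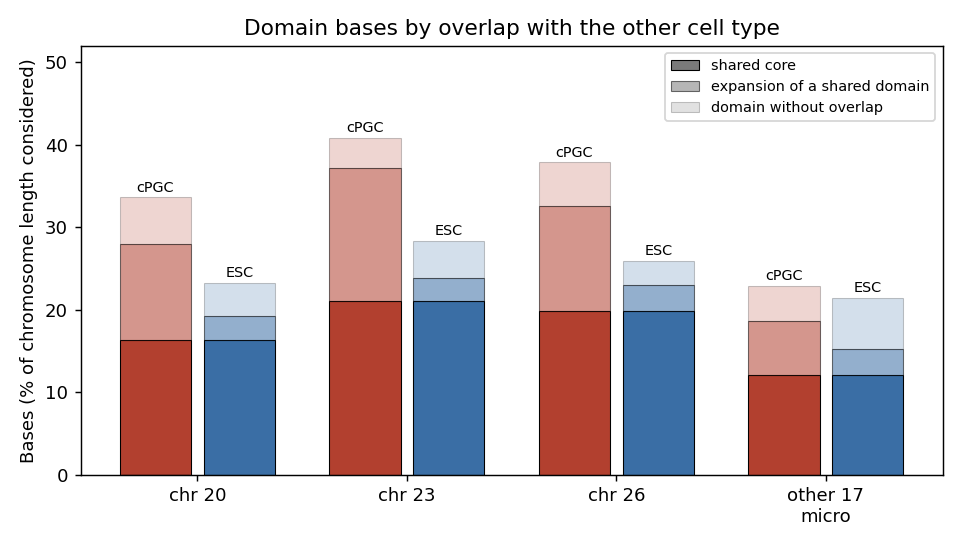
Bases in domains as a percentage of the chromosome length considered, split into shared core (dark), expansion of a shared domain (medium) and domain without overlap (light), for cPGCs (red) and ESCs (blue). The core is the same in both bars of a chromosome by construction, and expansions account for most of the height by which cPGC bars exceed ESC bars on chromosomes 20, 23 and 26.

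By number, 167 of 485 cPGC domains (34.4%) had no overlap with an ESC domain, against 43.0% over all chromosomes and 35.4% on the other microchromosomes. Of the 668 ESC domains, 179 (26.8%) had no overlap, against 34.6% over all chromosomes and 44.9% on the other microchromosomes. Domains without overlap were narrow, with a median of 6000 bp in cPGCs and 3900 bp in ESCs, while overlapping domains had medians of 14100 and 8100 bp. Of the ESC domains, 305 (45.7%) lay entirely inside a cPGC domain, and 67 of the cPGC domains (13.8%) lay entirely inside an ESC domain. These shares were 34.1% and 11.8% over all chromosomes, 27.4% and 18.8% on the other microchromosomes, and 44.9% and 12% on chromosome 24. Wide domains enclose other domains more easily by their width alone, and this part of the values was not tested.

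Of the cPGC domains, 102 (21.0%) overlapped 2 or more ESC domains, and 12 overlapped 5 or more. The corresponding numbers for ESC domains were 34 (5.09%) and 0. Over all chromosomes 14.1% of cPGC domains and 8.10% of ESC domains overlapped 2 or more of the other list. For cPGC domains this share was 23.3% on chromosome 24 and 21.5% on chromosome 17. Overlap with 5 or more was found for 178 of 23130 cPGC domains and 11 of 24491 ESC domains over all chromosomes. The expansions of cPGCs were divided further into bases between ESC domains that lie under the same cPGC domain and bases beyond the outermost ESC domain. The former held 1179300 bp, or 36.4% of the expansions, and the latter 2056500 bp. The share between ESC domains was 38.1% on chromosome 20, 38.8% on chromosome 23 and 29.1% on chromosome 26, against 32.3% on the other microchromosomes. Few borders were the same in both lists. Of the 978 edges of overlapping ESC domains, 48 (4.91%) coincided with an edge of the same kind in cPGCs, and 1 domain was identical in both. This share was 4.42% over all chromosomes and 5.27% on the other microchromosomes. All borders lie on the 300 bp windows of the caller, so a match means the same window.

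The bases outside the other list were spread over many domains. In cPGCs 4523700 bp lay outside ESC domains, and 66 of the 485 domains (13.6%) held 50% of them. The 3 leading domains of each chromosome held 10.2% of the cPGC bases outside ESC domains on chromosome 20, 20.2% on chromosome 23 and 11.9% on chromosome 26. On chromosome 20 they were the domains at 1900801 to 2053500, with 85800 bp outside 10 ESC domains, at 8234701 to 8361600, with 81900 bp outside 4, and at 4854901 to 4966800, with 79500 bp outside 4. On chromosome 23 they were the domain at 4464901 to 4631700 named above, with 102300 bp outside ESC domains, and those at 2803201 to 2947800 and 3903601 to 3988500, with 63900 bp each. On chromosome 26 they were smaller and lay partly next to each other, at 3340201 to 3390600 (39900 bp outside), 1828801 to 1879500 (38400 bp) and 3394501 to 3453000 (35400 bp). The ESC domain with most bases outside cPGC domains was that of 50100 bp near the end of chromosome 23 (5669701 to 5719800), with 48000 bp. On chromosome 20 it was a domain of 30600 bp at 12987001 to 13017600, and on chromosome 26 one of 18600 bp at 4735201 to 4753800, which had no cPGC overlap.

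In bins of 100 kb, 86 of 253 reached a coverage of 50% in cPGCs and 39 did so in ESCs. These shares, 34% and 15.4%, were near those over all chromosomes, 31.7% and 11.6%. The longest uninterrupted run of such bins in cPGCs had 8 bins on chromosome 20 (2800001 to 3600000), 5 on chromosome 23 (4400001 to 4900000) and 5 on chromosome 26 (2700001 to 3200000). Within them cPGC domains covered 87.8%, 88.4% and 74.1%, and ESC domains 59.2%, 49.0% and 49.2%, respectively. A run of 4 bins on chromosome 20 (8100001 to 8500000) had an ESC coverage of 27.2% against 81.7% for cPGCs, and a run of 3 bins on chromosome 23 (200001 to 500000) one of 29.4% against 63.7%. The longest runs in ESCs had 5 bins each, on chromosome 20 (3100001 to 3600000) and on chromosome 23 (600001 to 1100000). The latter went the other way, with 58.8% covered in cPGCs and 64.5% in ESCs.

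Gaps between neighboring domains were compared by their median and their upper range. The median gap was 12000 bp for cPGCs against 12600 bp for ESCs on chromosome 20, 8100 and 9300 bp on chromosome 23, and 9600 and 12300 bp on chromosome 26. The smallest gap was 1800 bp in each list, and nearer islands had been joined by the caller. The upper quartile was 44775 bp for cPGCs against 42300 bp for ESCs on chromosome 20, 58050 against 33300 bp on chromosome 23 and 32400 against 34500 bp on chromosome 26, and the widest gap of chromosome 20 was 433800 against 242100 bp. The order of the medians over the 3 chromosomes, 11100 bp in cPGCs and 12000 bp in ESCs, turned when domains at most 3000 bp apart were joined (21300 and 19200 bp). Gaps of 50 kb and over numbered 103 of 482 in cPGCs and 126 of 665 in ESCs, a slightly higher share in cPGCs. On the other microchromosomes they numbered 609 of 2467 and 710 of 3582, again a higher share in cPGCs. Over all chromosomes they numbered 3193 of 23101 and 4306 of 24461, a lower share in cPGCs, with median gaps of 6600 and 13500 bp. Neither cell type had a domain in 57.0% of the bases of the 3 chromosomes, and the longest stretch free of domains in both was 228600 bp on chromosome 20 (1393801 to 1622400), 138900 bp on chromosome 23 (5096701 to 5235600) and 179400 bp on chromosome 26 (470701 to 650100). The stretch on chromosome 23 holds *HDAC1*, a histone deacetylase, and *LCK*, a kinase of T cells.

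Genes were placed with the Ensembl loci listed for galGal5 by the study, each of which runs from shortly before the start of the gene to its end. The list used here is partial, with 336 loci on the 3 chromosomes, and coverage of each locus was computed from the domain positions. A locus was called different when coverage differed by at least 25 percentage points. Of the 336 loci, 50 (14.9%) were more covered in cPGCs by this limit and 32 (9.52%) in ESCs, against 9.3% and 9.2% of the 1999 loci used over all chromosomes. As the chromosomes were selected for cPGC coverage, nothing is read from the first share. The 1999 loci include the 336 and come from the same partial list in Ensembl order. Their shares may therefore not stand for all genes. By chromosome, 6 (8.70%) and 3 (4.35%) of 69 loci differed on chromosome 20, and 15 (12.8%) and 11 (9.40%) of 117 on chromosome 23. On chromosome 26 they were 29 (19.3%) and 18 (12%) of 150. The median coverage of the loci was 0% in both cell types, and 179 had no domain in either.

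Among the loci more covered in cPGCs, some were free of domains in ESCs. On chromosome 23 they included *PTAFR*, the receptor for platelet-activating factor (100% in cPGCs and 0% in ESCs), and *CSF3R*, the receptor for granulocyte colony-stimulating factor (65.4% and 0%). On chromosome 26 *GUCA1B*, a guanylate cyclase activator of photoreceptors, *CTSE*, the protease cathepsin E, and *OPTC*, a matrix protein of the eye, were each fully covered in cPGCs and had no domain in ESCs. On chromosome 20 *SGK2*, a serum- and glucocorticoid-regulated kinase, was covered at 68.7% and 0%, and *GDAP1L1* at 68.1% and 0%. *MAN1C1*, a mannosidase of the Golgi, differed less, at 83.1% against 18.0%. On chromosome 26 *C1orf116* and *TSHB*, the beta subunit of thyroid-stimulating hormone, were likewise at 100% and 0%, and *TSHB* was named after its values were seen, as it tied with the loci selected.

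The reverse was found for *IL22RA1*, a subunit of the interleukin-22 receptor, and *LSM10*, a component of the U7 ribonucleoprotein, on chromosome 23, each at 0% in cPGCs and 100% in ESCs. *IL22RA1* lies under the ESC domain of 50100 bp near the chromosome end, which ends at the edge of *GRHL3*, an epithelial transcription factor. *GRHL3* was covered in both cell types, but more in ESCs and past the limit (59% in cPGCs and 84.9% in ESCs). The same ESC domain also overlaps *MYOM3*, a protein of the sarcomere M-band, which was free of domains in cPGCs and covered at 80.3% in ESCs. On chromosome 26 *TREM-B1*, an immune receptor of the TREM family, lies under the widest ESC domain without overlap and was covered at 0% and 100%. The same domain reaches into *NFYA*, a subunit of the CCAAT-binding factor NF-Y (0% and 26.8%). *OLFML3*, which encodes a secreted protein (0% and 95.4%), and *ETV7*, a transcription factor of the ETS family (0% and 91.5%), showed the same order. On chromosome 20 the largest difference in this direction among loci with a symbol was that of *TTPAL* (0% and 64.6%), and *GGT7*, a member of the gamma-glutamyltransferase family, was covered at 0% and 42.8%. *NDRG3* did not reach the limit (0% and 21.2%).

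Loci were also taken from the windows at both ends of the range of differences on chromosomes 23 and 26. On chromosome 20 no locus was named from these windows. In the window of chromosome 23 from 3 to 4 Mb, *RSPO1*, a secreted activator of WNT signaling, was covered at 54.4% in cPGCs against 13.8% in ESCs, whereas *ZC3H12A*, a ribonuclease that degrades mRNAs of inflammation, was covered in ESCs alone (21.0%). In the last window of this chromosome, where ESCs had more domain bases, *HPCAL4*, a neuronal calcium sensor (60.1%), and *FNDC5*, the precursor of irisin (34.2%), were also covered in ESCs alone. In the last window of chromosome 26, *ATP2B4*, a calcium pump of the plasma membrane, was covered at 28.2% and 0%, but *USP49*, a deubiquitinase whose locus crosses the start of the window, at 48.3% and 72.0%. The first window of this chromosome had its smallest difference, 4.72 percentage points, still higher in cPGCs, and loci in it went both ways. There *PPFIA4*, a liprin of synapses, was covered at 100% and 60.1%, *BRPF3*, a subunit of histone acetyltransferase complexes, at 44.2% and 0%, and *MGAT4C*, a glycosyltransferase, at 0% and 38.8%.

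**Figure D5:**
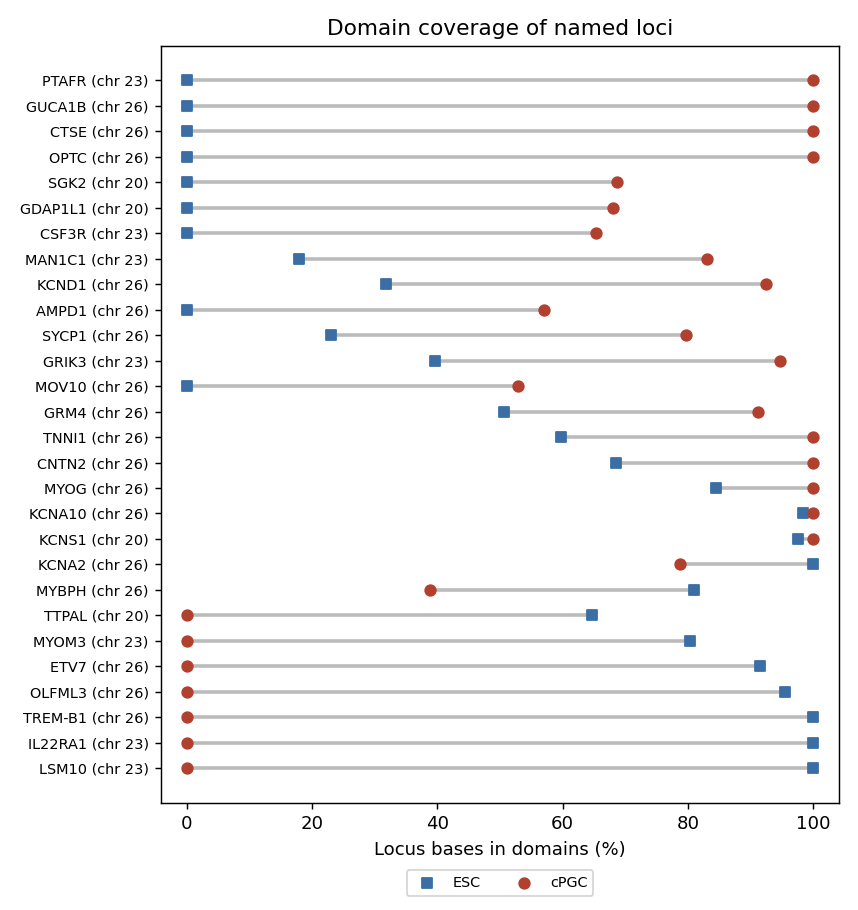
Percentage of each locus in domains (horizontal axis) in cPGCs (red circles) and ESCs (blue squares) for named loci, with the chromosome in brackets and a gray line joining both values. Loci at the top, such as *PTAFR* and *GUCA1B*, are covered in cPGCs alone, those at the bottom, such as *IL22RA1* and *LSM10*, in ESCs alone, and *KCNA10* and *KCNS1* lie near 100% in both.

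The lists that follow are small and were chosen with earlier results known, so their counts describe the listed genes only and are set beside those of the 336 loci. Of 8 genes in a list of neural and glutamate receptor genes, 4 differed by at least 25 percentage points, all with higher coverage in cPGCs (14.9% of the 336 loci). The median coverage was 92.9% in cPGCs and 45.1% in ESCs. The list does not hold every neural gene of these chromosomes, so this direction belongs to the listed genes. *HPCAL4*, named above and not in the list, went the other way (0% and 60.1%). *GRIK3*, a kainate-type glutamate receptor subunit in the block of chromosome 23, was covered at 94.6% and 39.6%, and the wide cPGC domain at 3903601 to 3988500 reaches into it. *GRM4*, a metabotropic glutamate receptor partly under the widest cPGC domain of chromosome 26, was covered at 91.2% and 50.7%, and *CNTN2*, a neural adhesion protein, at 100% and 68.5%. *SLC6A17*, a transporter of synaptic vesicles, and *LRRN2* were fully covered in both, and *SYT6*, a synaptotagmin, was covered at 32.6% and 0%. Of a pair of genes that act in transmitter release, *RIMS3* had no domain in either and *RIMS4* was covered at 0% and 4.80%.

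All 5 potassium channel genes of a second list were overlapped by domains in both cell types, whereas 99 of the 336 loci were overlapped in cPGCs and 121 in ESCs. *KCNA10* (100% in cPGCs and 98.3% in ESCs) and *KCNS1* (100% and 97.6%) were nearly fully covered in both, *KCNA2* was covered at 78.7% and 100%, and *KCNC4* at 12.7% in each. *KCND1* was the only one past the limit, at 92.5% in cPGCs and 31.8% in ESCs. The cPGC domain of chromosome 26 with most bases outside ESC domains, at 3340201 to 3390600, lies within this locus.

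Muscle genes went in both directions. Of 8 genes, 3 were more covered in cPGCs and 2 in ESCs, against 14.9% and 9.52% of the 336 loci. *TNNI1*, the troponin I of slow muscle, had a coverage of 100% in cPGCs against 59.7% in ESCs, *AMPD1*, the AMP deaminase of muscle, one of 57.1% and 0%, and *TNNT2*, cardiac troponin T, one of 44.5% and 14.2%. *MYBPH*, a myosin-binding protein, was higher in ESCs (38.9% and 80.9%), as was *MYOM3*. *MYOG*, the myogenic regulator myogenin, was covered in both (100% and 84.5%), *APOBEC2* in neither, and the long locus of *CSRP1* at 8.20% and 13.9%.

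In a list of 8 immune genes, *PTAFR* and *CSF3R* were more covered in cPGCs and *IL22RA1* and *TREM-B1* in ESCs, against 14.9% and 9.52% of the 336 loci. *CD34*, a surface protein of blood progenitors, was covered in both (100% and 78.9%), and *IL10*, *LCK* and *CNR2* had no domain in either. The 4 germline and small RNA genes included *SYCP1*, a protein of the meiotic synaptonemal complex, covered at 79.6% in cPGCs against 23% in ESCs, and *MOV10*, an RNA helicase, at 52.9% and 0%. Both were past the limit in favor of cPGCs, against 14.9% of the 336 loci. *PABPC1L*, a poly(A)-binding protein of oocytes, had no domain in either, and *AGO1*, an Argonaute protein, was covered at 0% and 6.15%.

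Of 10 housekeeping RNA and chromatin factors, 7 had no domain in either cell type, against 179 of the 336 loci. The list does not hold every such gene, and *LSM10*, named above and not in it, was covered at 0% and 100%. Among the 7 were the splicing factors *SRSF3* and *SRSF6* and the chromatin proteins *HDAC1* and *RBBP4*. The others were *SFPQ*, *RBM39* and *RPL10A*. *RBBP5*, a subunit of H3K4 methyltransferase complexes, was covered in ESCs alone (13.9%). *TOP1*, which encodes DNA topoisomerase I, was the only one of the 10 past the limit, at 57.0% against 18.4%. Its locus as listed spans 179006 bp, and the cPGC domain of 111900 bp at 4854901 to 4966800 overlaps it and begins outside it. Expression was not analysed here, so coverage says nothing about the activity of these genes.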

How the data were processed

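Chromatin of cPGCs and ESCs was immunoprecipitated for H3K9me3, with 1 immunoprecipitated and 1 input library for each. The authors aligned paired reads to galGal5 with Bowtie 2, retained proper pairs with a unique location, called broad regions with MACS2 and islands with SICER (windows of 300 bp), and deposited the positions of the retained islands on the main scaffolds of autosomes. Versions of these callers are not given in the sources used here. Repeats that attract ambiguous reads may be underrepresented. The deposited start counts from 0 and the end is the last base, so 1 was added to both for printing.

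Coverage and the other measures came from Python 3.11.15 (pandas 2.3.3, numpy 2.4.6, scipy 1.17.1), and plots from matplotlib 3.10.9. The routines for covered bases, shared bases, overlap with the other list, windows and joining were tested on simulated lists, and 30 of 30 checks gave the known answer. The other measures were not checked in this way. Microchromosomes were taken as chromosomes 11 and up. Without replicates no test between cell types was run.

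The members and gene lists were chosen with earlier results of these data known. The named domains were, per chromosome, the 3 cPGC domains and the 1 ESC domain with most bases outside the other list, the widest, and the widest without overlap. Named loci, all with a symbol, had the largest differences per chromosome, in the windows with the highest and the lowest difference or under these domains, or belonged to 6 gene lists, of which 1 gene is not reported here by name. Loci and gene names are those listed by the study in Ensembl order, in part only, and no set test was run on them. Alternatives joined domains at most 3000 bp apart, removed domains under 3000 or under 5000 bp, and changed windows, limits and the overlap that counts as shared. Values were taken as unchanged within a 95% binomial interval (over windows of 300 bp, over 1 Mb windows, or of the median rank), or within 1.5 times for the share of the excess in wide domains.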

Additional observations from a re-analysis of the deposited data

How the results depend on the processing

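No alternative reversed a ratio of domain bases. With only domains of at least 5000 bp, the ratio was 1.58 on chromosome 20, 1.62 on chromosome 23 and 1.60 on chromosome 26, and on chromosome 23 it was 1.5 with domains of at least 3000 bp and 1.38 with domains at most 3000 bp apart joined. Without the widest cPGC domain of each chromosome it was 1.38, 1.33 and 1.39, and without the 1 Mb window of largest excess 1.38, 1.30 and 1.36. The share of windows higher in cPGCs was 70.4% with a limit of 5 percentage points and 25.9% with 20, and 54.2% with full windows only, an alternative chosen after seeing the data. The share higher in ESCs was 7.41% with the short last windows included and 4.17% with full windows only.

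Median width in cPGCs was 10800 bp both with joined domains and with domains of at least 3000 bp, and 14100 bp with domains of at least 5000 bp. In ESCs it was 8100 and 10500 bp with the minimum widths. For the cPGC bases in domains without overlap, the share was 10.02% with joined domains, and 16.3% and 20.5% with minimum widths of 3000 and 5000 bp. Domains with an overlap under 50% held 48.6%, their shared bases included. The share in expansions was 37.5%, 34.4%, 33.2% and 11.6%, in the same order. The median cPGC gap was 21300 bp against 19200 bp for ESCs with joined domains, and 11850 and 17700 bp with domains of at least 5000 bp. Over 6 further results, these gaps included, 11 of 25 alternatives left the interval of the main value. Over all 14 results, 37 of 62 alternatives left it. The intervals over 300 bp windows are narrow, as neighboring windows are not independent. No paired analysis was possible because each cell type has 1 library of each kind. Depth and enrichment are unknown, so the wider cPGC domains cannot be told apart from a deeper or more efficient library.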
